A study of Mus musculus with 45 samples.

Results

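The interferon-stimulated genes described here are 43 mouse genes of the textbook response to interferon, chosen by symbol and matched by Ensembl ID to a deposited table of gene counts from regenerating liver. All 43 were among the 19966 genes of that table. All 43 also passed the filter on low counts and so were 43 of the 14090 genes tested. Poly(A) RNA was sequenced in 45 libraries from livers of C57Bl/6 mice that were 8 to 12 weeks old at surgery. KO livers carried Uhrf1hepKO, by its name a knockout of Uhrf1 in hepatocytes that leaves other liver cells with the gene, and WT livers did not. The labels do not name the promoter that drives the deletion. Both genotypes were sampled at a baseline and 7 times after partial hepatectomy (PHx), the removal of part of the liver, after which the rest regrows. The times were 24, 30, 40, 48 and 96 h, then 7 days, then 4 weeks. These make 16 groups of 3 libraries, except that only 2 libraries represent KO 7 days, WT 30 h and WT 48 h.

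Interferons are secreted proteins that warn cells of viruses. Type I interferons, and type III interferons at epithelia, signal through the kinases JAK1 and TYK2 to a complex with STAT2 and IRF9 in it that binds the interferon-stimulated response element, a motif with repeated GAAA letters. Interferon gamma, the type II interferon, signals through JAK1 and JAK2 and raises IRF1 and many GTPase genes. UHRF1 brings the maintenance DNA methyltransferase to newly copied DNA. Loss of DNA methylation in cultured human cancer cells is known to release endogenous retroviral transcripts and with them an interferon response, so these genes bear on whether KO livers carry such a response.

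The targeted gene was read first, with genes known from earlier results of these data to be high in KO livers. Uhrf1 lay at 3.59 to 8.95 CPM (counts scaled to library size) in KO livers at 40 h, against 27.5 to 107 CPM in WT livers (edgeR adjusted p = 0.000314). Of those genes, Bglap3 lay between 3.18 and 29.4 CPM in all KO libraries and between 0.112 and 1.53 CPM in WT libraries of every condition other than 96 h. In the 3 libraries labelled WT at 96 h it stood at 9.38 to 28.4 CPM, and Rhox5 at 2.86 to 9.58 CPM, within the levels of KO libraries. The 96 h groups are therefore called the libraries labelled KO and the libraries labelled WT throughout, and any direction drawn between them or from them to baseline rests on those labels. Uhrf1 itself had 0.27, 1.76 and 2.07 CPM in the libraries labelled KO at 96 h. It had 0.792, 0.148 and 0.284 CPM in those labelled WT, and edgeR did not call the difference. Library 3 of KO at 48 h also stood apart. Its mean log2 CPM over the 43 genes was 3.63, against 2.88 and 2.90 in the other 2 libraries of its group, and its sum of 14 Kupffer cell markers was 309 CPM, against 115 and 129 CPM in those 2. Counts and changes of KO livers at 48 h are given with and without it. Libraries held 12851359 to 23133501 counts.

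Levels of the 43 genes at baseline spanned a wide range per transcript length. The membrane protein gene Ifitm3, which blocks entry of viruses into cells, had the highest level, at 481 ± 35.2 FPKM in KO livers and 468 ± 58.5 FPKM in WT livers (mean ± SD, n = 3 each; FPKM are fragment counts scaled for transcript length and depth). Bst2 (tetherin, which holds budding virus particles on the cell surface) followed at 186 ± 6.21 FPKM in KO livers and 145 ± 6.37 FPKM in WT livers. The lowest were Oas3, which makes the 2-5A signal that activates RNase L, at 0.165 ± 0.0596 and 0.0578 ± 0.0273 FPKM in KO and WT livers, and Oas2 and Mx1, both under 1 FPKM in baseline means. Isg15, the ubiquitin-like modifier, stood in the middle at 12.4 ± 1.44 FPKM in KO livers and 11.1 ± 5.96 FPKM in WT livers. Oas3, Oas1g and Mx1 rest on few reads, with medians of 7, 9 and 10 counts per library.

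Transcripts of interferons themselves were at or near 0. Of 21 interferon genes looked up in the deposited FPKM table, 16 were listed at 0 in all 45 libraries, Ifnb1 among them. The other 5 (Ifna4, Ifnab, Ifnk, Ifnz and Ifng) reached at most 0.127 FPKM in any library, with Ifng at up to 0.0845 FPKM. Of 6 receptor genes, 5 were tested, and no receptor moved by as much as 1 log2 unit where it was called. Ifngr2, a chain of the interferon gamma receptor, was called higher at 24 h in both genotypes, by 0.64 log2 units in KO livers and 0.55 log2 units in WT livers.

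After surgery a few of the 43 genes, led by Ifi27l2b and Zbp1, rose at 24 h in both genotypes. At 40 h more than 20 were called lower in each genotype, and at 30 h 21 were called lower in KO livers and 2 in WT livers. Of the 43 changes at 30 h, 38 were negative in KO livers and 29 in WT livers, a group of 2 libraries. A direct test of the difference between the genotypes' changes called no member at 30 h, though 40 of the 43 differences were negative. At 7 days and 4 weeks at most 2 members were called in either genotype. The mean log2 CPM over the 43 genes shows the course, with 3.41 to 3.5 in KO libraries and 2.90 to 3.65 in WT libraries at baseline, and 3.65 to 3.90 (KO) and 3.27 to 3.63 (WT) at 24 h. It was 2.70 to 2.95 (KO) and 3.16 in both libraries (WT) at 30 h, and 2.80 to 2.88 (KO) and 2.49 to 2.88 (WT) at 40 h. Every library at 40 h thus lay below every baseline library of either genotype. At 7 days the mean was 3.56 to 3.67 in KO libraries and 3.53 to 3.77 in WT libraries, and at 4 weeks 3.10 to 3.48 and 3.19 to 3.48. In whole-liver RNA, fewer cells of a type and less RNA per cell cannot be told apart.

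**Figure D1:**
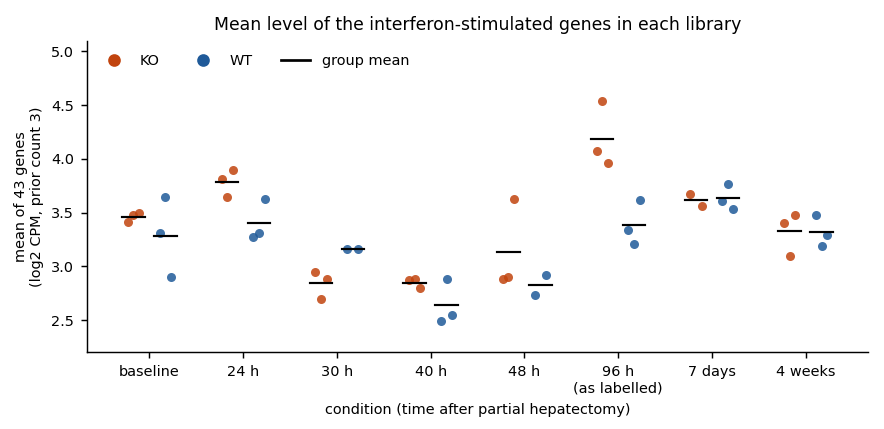
Mean log2 CPM (vertical axis, prior count 3) of the 43 interferon-stimulated genes in each of the 45 libraries, by condition, with KO in orange left of WT in blue and a black line at each group mean. All libraries at 40 h lie at or below 2.88, under the lowest baseline library at 2.90, and the libraries labelled KO at 96 h reach 3.96 to 4.54.

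Each time was tested against baseline of the same genotype, with a gene called where edgeR's adjusted p over all 14090 genes was under 0.05. Calls are those of edgeR unless another tool is named. At 24 h, 11 members were called higher and 2 lower in KO livers, where 11.5% and 12.2% of all genes tested were called higher and lower. In WT livers 7 were called higher and 3 lower, against 10.5% and 11.9% of all genes. Leaving out WT library 3 at 24 h left 6 calls in WT livers. At 30 h, 3 members were called higher and 21 lower in KO livers (17% and 16.1% of all genes), and 3 higher and 2 lower in WT livers (9.33% and 8.35% of all genes). The 5 calls in WT livers at 30 h became 3 without WT library 2 at baseline, 9 without WT library 3 at baseline and 2 without WT library 3 at 30 h. In KO livers at 30 h, 4 of 14 Kupffer cell markers and 5 of 10 endothelial cell markers were also called lower, with sums of 113 to 252 and 115 to 180 CPM, against 242 to 344 and 242 to 256 CPM at baseline. None of either list was called lower in WT livers at 30 h, where the sums were 101 to 388 and 157 to 172 CPM, against 146 to 220 and 187 to 227 CPM at baseline. The sums of 8 B cell and plasmacytoid dendritic cell, 14 T and NK cell and 12 monocyte and neutrophil markers in KO livers at 30 h were 1.41 to 1.88, 1.08 to 2 and 25.6 to 26.5 CPM, against 3.34 to 4.38, 2.84 to 4.48 and 35.6 to 45 CPM at baseline. None of these 3 overlapped. In WT livers they were 1.05 to 1.51, 1.61 to 2.12 and 21.6 to 48.6 CPM at 30 h, against 1.38 to 2.36, 2.26 to 3.82 and 17.9 to 31.1 CPM at baseline, and only the T and NK cell sums were apart. The part of these cells in the fall was not tested.

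At 40 h, 24 of 43 members were called lower and 1 higher in KO livers, where 17.7% of all genes tested were called lower and 17.9% higher. In WT livers 26 were called lower and 1 higher, with 17.3% and 19.2% of all genes. The median log2 change of the 43 genes was -0.71 in KO livers and -0.71 in WT livers, beside -0.011 and -0.003 over all genes. Of the members called lower at 40 h, 23 were called in both genotypes, which is 95.8% of the KO calls and 88.5% of the WT calls. Over all genes, 1830 were called lower at 40 h in both, or 73.3% of the KO calls and 74.9% of the WT calls. Tests on FPKM values called 19 to 21 members in KO livers and 14 to 15 in WT livers at 40 h, in place of 25 and 27.

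At 48 h, 8 members were called lower and 2 higher in KO livers (17% and 19% of all genes), and 14 lower and 2 higher in WT livers (15.4% and 15.6% of all genes). All 8 of the KO calls were also called lower in WT livers. The KO count rests on library 3, since 17 members were called lower and 2 higher without it, and 4 lower and 2 higher without library 2. In WT livers 5 were called lower and 2 higher without library 2, which leaves 1 library in that group. Cell markers also stood low in KO livers at 48 h. The sums of 10 endothelial and 14 Kupffer cell markers were 112 to 221 and 115 to 309 CPM there, against 242 to 256 and 242 to 344 CPM at baseline, with 5 and 2 markers called lower. In WT livers they were 183 to 227 and 115 to 459 CPM at 48 h, against 187 to 227 and 146 to 220 CPM, with none called lower. The B cell and plasmacytoid dendritic cell, T and NK cell, and monocyte and neutrophil sums in KO livers at 48 h were 1.28 to 2.25, 1.95 to 2.61 and 20.3 to 34.3 CPM, each below all of its baseline range. In WT livers at 48 h they were 0.616 to 1.14, 1.57 to 2.57 and 21.7 to 84.4 CPM. There only the B cell and plasmacytoid dendritic cell sums lay below all of their baseline range, 1.38 to 2.36 CPM. The part of these cells in the calls at 48 h was not tested.

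At 7 days 2 members, Ifi27l2b and Bst2, were called higher in KO livers and 1, Ifi27l2b, in WT livers, beside 3.06% and 2.25% of all genes. Ifi27l2b changed by 1.96 ± 0.34 and 2.27 ± 0.35 log2 units, and Bst2 by 0.77 ± 0.16 in KO livers. The count was 1 in KO livers without KO library 3 at 7 days. In WT livers it was 3 without WT library 2 at baseline and 2 without WT library 1 or 3 at 7 days. At 4 weeks Bst2 was called higher in KO livers (0.51 ± 0.14, edgeR adjusted p = 0.0245), where 4.29% of all genes were called higher. No member was called there when any 1 library of KO at baseline, or library 1 or 3 of KO at 4 weeks, was left out, and 2 were without library 2 of KO at 4 weeks. No member was called in WT livers at 4 weeks by edgeR or DESeq2, where 1.17% of all genes were called by edgeR. At an unadjusted p under 0.05 there were 3 members, and the share of all genes at that threshold was not counted.

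**Figure D2:**
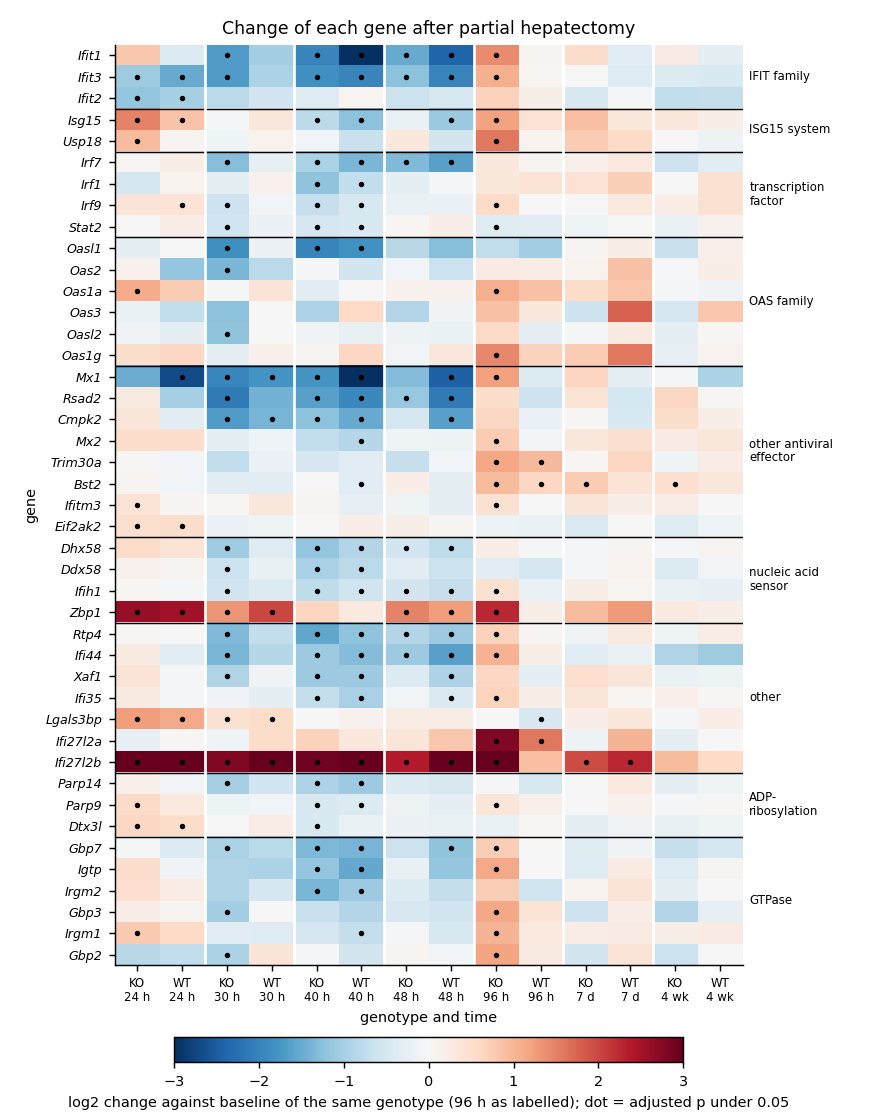
Log2 change of each of the 43 genes against baseline of the same genotype, grouped by role, with KO left of WT at each time and a dot where the adjusted p is under 0.05; colours stop at 3 log2 units in either direction. The columns at 40 h are blue for most genes in both genotypes, while Ifi27l2b stays red at 24 to 48 h and the libraries labelled KO at 96 h are red for most rows.

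Promoters of genes that moved together are shown for letters of the interferon-stimulated response element. Of the 43 genes, 32 have a promoter entry in RefSeq (assembly GRCm38.p6), read here from 250 bases before to 50 after the start. The letters GAAA, then any 2 bases, then GAAA, on either strand and with overlapping matches allowed, were in 20 of these 32 windows (62.5%), and in 3.99% of the 27025 genes with an entry. They were in 10 of the 18 members that were called lower at 40 h in both genotypes (55.6%) and in 10 of the 14 others (71.4%). The share was thus not higher among those 18. The 14 others are not all genes that stayed level. Bst2 and Irgm1 were called lower in WT livers at 40 h, and Gbp2 in KO livers at 30 h. All 6 GTPase genes held them. The stretches printed here, of 80 bases each and upstream of the start, were chosen because Ifit1, Ifit3, Isg15, Rsad2 and Igtp were called lower at 40 h in both genotypes and Bst2 differed between the genotypes in the mean over 7 conditions. They are written 5′ to 3′ on the gene's strand, with matches in capitals. A match is a description of letters and not a measured binding site.
Ifit1, chr19:34640759-34640838, plus strand, 2 matches: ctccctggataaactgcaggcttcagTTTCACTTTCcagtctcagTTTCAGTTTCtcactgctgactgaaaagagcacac
Ifit3, chr19:34583355-34583434, plus strand, 2 matches: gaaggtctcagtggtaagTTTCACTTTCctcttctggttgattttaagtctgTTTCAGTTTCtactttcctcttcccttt
Isg15, chr4:156200846-156200925, minus strand, 3 overlapping matches: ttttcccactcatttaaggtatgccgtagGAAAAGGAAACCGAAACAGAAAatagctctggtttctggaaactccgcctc
Rsad2, chr12:26456528-26456607, minus strand, 1 match: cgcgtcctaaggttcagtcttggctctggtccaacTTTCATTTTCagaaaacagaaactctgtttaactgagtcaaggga
Igtp, chr11:58199476-58199555, plus strand, 1 match: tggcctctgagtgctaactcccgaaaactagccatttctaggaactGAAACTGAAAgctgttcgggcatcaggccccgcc
Bst2, chr8:71537555-71537634, minus strand, 2 overlapping matches: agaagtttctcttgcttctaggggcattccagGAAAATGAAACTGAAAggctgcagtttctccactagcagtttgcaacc

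The IFIT genes, whose proteins bind viral RNA that lacks the host cap methylation and sit in a cluster on chromosome 19, fell at 40 h in 2 of 3 cases, Ifit1 and Ifit3. Ifit2 averaged 3.11 ± 1.64 CPM in KO livers at 40 h, against 4.05 ± 0.406 CPM at baseline, and 3.34 ± 0.502 CPM in WT livers, against 3.18 ± 1.6 CPM, and was not called. Ifit1 (chr19:34640871-34650009, mm10) had 1.25, 2.81 and 1.87 CPM in KO livers at 40 h, against 7.81, 9.08 and 6.33 CPM in KO livers at baseline. In WT livers it had 1.12, 1.26 and 1.64 CPM at 40 h, against 9.86, 16.7 and 5.2 CPM at baseline. The groups did not overlap in either genotype, and the changes were -1.97 ± 0.37 log2 units in KO livers (SE; edgeR adjusted p = 6.42e-05) and -2.98 ± 0.39 in WT livers (edgeR adjusted p = 1.51e-07). At 24 h Ifit1 had 12.7, 12.6 and 15 CPM in KO livers and 6.65, 6.35 and 11.1 CPM in WT livers, and it was not called in either genotype. At 30 h it stood at 2.39, 1.78 and 2.88 CPM in KO livers and 6.52 and 4 CPM in WT livers.

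Ifit3 was called lower at 24 h already. It had 5.56, 4.53 and 5.97 CPM in KO livers at 24 h, against 12, 12.6 and 8.91 CPM at baseline, and 3.3, 5.74 and 3.2 CPM in WT livers at 24 h, against 14.6, 13.8 and 6.57 CPM at baseline. Neither pair of groups overlapped, and the changes were -1.06 ± 0.35 in KO livers (edgeR adjusted p = 0.0235) and -1.52 ± 0.35 in WT livers (edgeR adjusted p = 0.00167). At 48 h Ifit3 had 2.75, 2.82 and 8.81 CPM in KO livers, of which library 3 alone came near the baseline level, and 3.02 and 2.8 CPM in WT livers. Without library 3 its change at 48 h in KO livers was -2.00 log2 units in place of -1.23. Ifit2 was called lower at 24 h in both genotypes, by -1.17 ± 0.36 in KO livers and -1.0 ± 0.37 in WT livers. Ifit3 and its near-copy Ifit3b may share reads, so their split is uncertain.

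Isg15 and Usp18 act as a pair: ISG15 is attached to proteins, and USP18 removes it and also damps the type I receptor. Isg15 had 21.8, 21.8 and 26.2 CPM in KO livers at 24 h, against 9.22, 7.29 and 8.55 CPM at baseline. In WT livers it had 14.7, 11.4 and 20.1 CPM at 24 h, against 9.71, 12.1 and 3.67 CPM at baseline. The KO groups did not overlap and the WT groups did, with changes of 1.48 ± 0.29 (edgeR adjusted p = 0.000214) and 0.86 ± 0.29 (edgeR adjusted p = 0.0287). By 40 h Isg15 had fallen to 4.57, 5.79 and 4.11 CPM in KO livers and 3.53, 4 and 3.28 CPM in WT livers, and it was called lower than baseline in both genotypes (-0.79 ± 0.30 and -1.23 ± 0.31). Usp18 rose at 24 h in KO livers, by 0.95 ± 0.27 log2 units (edgeR adjusted p = 0.00792). It had 9.94, 9.04 and 13.1 CPM in WT livers at 24 h, within the WT baseline range of 5.2 to 15.9 CPM. The difference between these 2 changes did not pass the threshold, and edgeR called no such difference for any member at a time other than 96 h. At an unadjusted p under 0.05 these differences numbered 3, 5, 0, 2, 1 and 0 members, in time order from 24 h to 4 weeks without 96 h. At the adjusted threshold the shares of all genes called were 0%, 0.0355%, 0%, 0%, 0% and 0.0071%. The share of all genes at the unadjusted threshold was not counted, so the member numbers have no background beside them.

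All 4 transcription factor genes were called lower at 40 h in both genotypes. Irf7, the factor that amplifies type I interferon production, had 17.3, 15.7 and 19.4 CPM in KO livers at 40 h, against 39.4, 26.2 and 34.9 CPM at baseline. In WT livers it had 6.83, 14.7 and 5.9 CPM at 40 h, against 25.9, 30.8 and 14.1 CPM at baseline. The KO groups were apart and the WT groups overlapped in 1 library, with changes of -0.94 ± 0.30 and -1.36 ± 0.31 log2 units. Irf1, the factor downstream of interferon gamma, fell by 1.21 log2 units in KO livers and by 0.74 log2 units in WT livers at 40 h. Irf9, the DNA-binding partner of STAT2, averaged 18.9 ± 1.01 CPM in KO livers at 40 h, against 30.9 ± 3.57 CPM at baseline, and 19.5 ± 3.16 CPM in WT livers at 40 h, against 27.1 ± 4.28 CPM at baseline. Stat2 fell less, by 0.51 log2 units in KO livers and by 0.45 log2 units in WT livers at 40 h. At 48 h the calls differed within this group. Irf7 was called lower in both genotypes, and Irf1, Irf9 and Stat2 in neither.

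The RNA sensors of the RIG-I family fell together. Ddx58 (RIG-I), Ifih1 (MDA5) and Dhx58 (LGP2), helicases that recognise viral RNA in the cytoplasm, were all called lower at 40 h in both genotypes. Dhx58 averaged 5.84 ± 0.246 CPM in KO livers at 40 h, against 13 ± 1.04 CPM at baseline, a change of -1.16 ± 0.22 log2 units (edgeR adjusted p = 9.2e-05). In WT livers it averaged 5.67 ± 0.833 CPM at 40 h, against 10.3 ± 2.51 CPM at baseline, a change of -0.87 ± 0.23 (edgeR adjusted p = 0.00262). Ddx58 changed by -0.97 ± 0.23 and -0.81 ± 0.23 log2 units in KO and WT livers, and Ifih1 by -0.77 ± 0.17 and -0.60 ± 0.17.

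Zbp1 (chr2:173206612-173218923), a sensor of left-handed nucleic acid that can start necroptosis, went the other way. It had 25.6, 26.8 and 26.1 CPM in KO livers at 24 h, against 3.94, 4.08 and 4.69 CPM at baseline, and 19.4, 22.7 and 26.5 CPM in WT livers at 24 h, against 3.72, 5.15 and 2.98 CPM at baseline. No library at 24 h overlapped with baseline, and the changes were 2.62 ± 0.37 in KO livers (edgeR adjusted p = 2.45e-06) and 2.53 ± 0.37 in WT livers (edgeR adjusted p = 6.57e-06). It was called higher again at 30 and 48 h in both genotypes, but not at 40 h, when it had 8.39, 6.32 and 5.2 CPM in KO livers and 3.65, 5.59 and 5.24 CPM in WT livers.

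Ifi27l2b (chr12:103450898-103457223), a small membrane protein gene of the ISG12 family, had the largest rise of the set. It had 39.4, 40.9 and 45.1 CPM in KO livers at 24 h, against 4.01, 4.14 and 3.14 CPM at baseline, and 25.6, 21.9 and 23.9 CPM in WT livers at 24 h, against 3.72, 1.79 and 1.68 CPM at baseline. The changes were 3.48 ± 0.32 and 3.31 ± 0.34 log2 units (edgeR adjusted p = 2.16e-09 in KO and 1.61e-08 in WT livers). It stayed called at 30, 40 and 48 h and at 7 days in both genotypes, with changes of 1.96 to 3.28 log2 units. At 4 weeks it had 7.42, 4.31 and 9.57 CPM in KO livers and 4.76, 3.71 and 2.33 CPM in WT livers, and was not called by edgeR in either. DESeq2 called it in KO livers at 4 weeks, as did edgeR without KO library 2 at 4 weeks. Its neighbour Ifi27l2a, to which reads could be split, was not called at 24 to 48 h in either genotype. Lgals3bp, which encodes a secreted glycoprotein that binds galectin 3, also rose at 24 h, with 163, 170 and 163 CPM in KO livers, against 68.7, 67.5 and 71.1 CPM at baseline. In WT livers it had 127, 114 and 160 CPM at 24 h, against 61.3, 67.5 and 55 CPM at baseline. By 40 h it was back within 63.5 to 73.3 CPM in all 6 libraries.

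**Figure D3:**
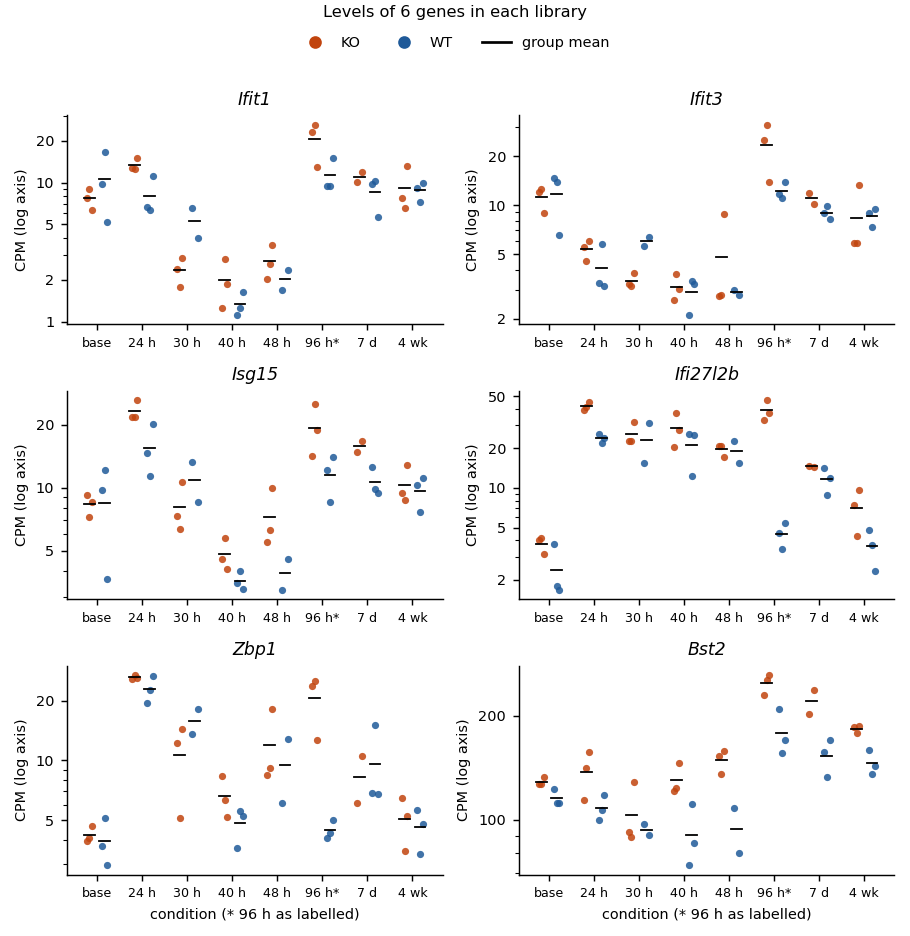
CPM of Ifit1, Ifit3, Isg15, Ifi27l2b, Zbp1 and Bst2 in every library on log axes, by condition, with KO in orange left of WT in blue and black lines at group means. Ifit1 and Ifit3 reach their lowest WT means at 40 to 48 h, Ifi27l2b and Zbp1 are high at 24 h, and the Bst2 mean of KO libraries lies above that of WT libraries in every condition.

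Of the remaining antiviral genes, Mx1, Rsad2, Cmpk2 and Oasl1 were called lower at 40 h in both genotypes. Rsad2 (viperin) and Cmpk2, neighbours on chromosome 12, make nucleotide analogs and nucleotides, and MX1 is a GTPase that traps viral particles, known to be defective in C57BL/6 mice. Rsad2 had 1.91, 2.34 and 3.22 CPM in KO livers at 40 h, against 5.77, 11.6 and 6.08 CPM at baseline, and 2.12, 3.07 and 2.69 CPM in WT livers at 40 h, against 9.13, 15.6 and 5.5 CPM at baseline. Neither pair overlapped, and the changes were -1.64 ± 0.47 and -1.94 ± 0.47 log2 units. Mx1 changed by -1.76 ± 0.59 and -3.02 ± 0.61 at 40 h, at levels of 0.208 to 0.351 CPM in KO livers and 0.0656 to 0.274 CPM in WT livers. Among the 6 OAS genes, Oasl1 was the one called lower at 40 h, by -1.99 ± 0.46 in KO livers and -1.82 ± 0.48 in WT livers, where its groups overlapped. Oas1a and Oas1g are near-identical neighbours whose reads may be split between them, and neither was called at 30 to 48 h. Ifitm3 and Eif2ak2 (PKR, the kinase that halts translation on double-stranded RNA) were not called by edgeR at 30 to 48 h in either genotype. Tests on FPKM values called Ifitm3 in WT livers at 30 h in all 3 versions.

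The GTPase genes, whose proteins attack the vacuoles of intracellular pathogens and are classic targets of interferon gamma, fell in part. Gbp7, Igtp and Irgm2 were called lower at 40 h in both genotypes. Igtp had 39.4, 18.1 and 24 CPM in KO livers at 40 h, against 53.6, 54.5 and 74.5 CPM at baseline, and 19.1, 23.6 and 16.5 CPM in WT livers, against 69.1, 64 and 38.6 CPM at baseline. The groups were apart in both genotypes, with changes of -1.16 ± 0.41 and -1.54 ± 0.42. Igtp and Irgm2 overlap on the same strand of chromosome 11, so their reads cannot be fully told apart. Gbp2 was called lower once, at 30 h in KO livers (-0.96 ± 0.37). It had 4.96, 2.98 and 3.33 CPM in KO livers at 40 h and 1.71, 2.52 and 1.9 CPM in WT livers at 40 h. Of the ADP-ribosylation genes, Parp9 and Parp14 were called lower at 40 h in both genotypes, and Dtx3l, whose end overlaps Parp9, in KO livers.

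The other members with large called changes are given by time. At 24 h Oas1a, Irgm1, Dtx3l and Ifitm3 rose in KO livers, by 1.12 ± 0.33, 0.78 ± 0.22, 0.61 ± 0.18 and 0.40 ± 0.13 log2 units. In WT livers Dtx3l, Eif2ak2 and Irf9 rose at 24 h, by 0.55 ± 0.18, 0.53 ± 0.17 and 0.42 ± 0.16 log2 units, and Mx1 changed by -2.69 ± 0.58. Lgals3bp changed by 1.26 ± 0.15 in KO livers and 1.13 ± 0.15 in WT livers.

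The fall at 30 h in KO livers was led by Rsad2 (-2.12 ± 0.48 log2 units), Mx1 (-1.96 ± 0.61), Oasl1 (-1.85 ± 0.46), Ifit1 (-1.71 ± 0.36), Ifit3 (-1.70 ± 0.36) and Cmpk2 (-1.70 ± 0.39). Ifi44 and Oas2 followed at -1.38 ± 0.40 and -1.36 ± 0.42, then Irf7 at -1.28 ± 0.30, Irf9 at -0.61 ± 0.16 and Stat2 at -0.59 ± 0.15. Oasl2, an OAS-like protein gene, had 1.17, 1.84 and 0.94 CPM in KO livers at 30 h, against 3.24, 2.04 and 3.71 CPM at baseline, a change of -1.20 ± 0.40 (edgeR adjusted p = 0.0206), and it was not called at any other time against baseline in either genotype. In WT livers Mx1 and Cmpk2 were called lower at 30 h, at -1.79 ± 0.63 and -1.39 ± 0.44. The members called higher at 30 h were the same 3 in both genotypes, with Ifi27l2b at 2.78 ± 0.32 in KO and 3.28 ± 0.36 in WT livers, Zbp1 at 1.33 ± 0.37 and 2.00 ± 0.40, and Lgals3bp at 0.46 ± 0.15 and 0.54 ± 0.16.

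At 40 h Rtp4, which encodes a chaperone of membrane receptors, Irgm2 and Gbp7 changed by -1.55 ± 0.27, -1.38 ± 0.38 and -1.34 ± 0.28 log2 units in KO livers. In WT livers Cmpk2 and Gbp7 changed by -1.51 ± 0.38 and -1.39 ± 0.29, and Bst2 by -0.35 ± 0.14 (edgeR adjusted p = 0.0499). Ifit3 changed by -1.83 ± 0.36 in KO livers and -1.99 ± 0.37 in WT livers. At 48 h Ifit1 changed by -1.51 ± 0.35 in KO livers and -2.40 ± 0.42 in WT livers, Irf7 by -1.33 ± 0.30 and -1.64 ± 0.36, Rsad2 by -1.13 ± 0.45 and -2.11 ± 0.54, and Ifi44 by -1.10 ± 0.38 and -1.63 ± 0.46. Rtp4, Dhx58 and Ifih1 were also called lower at 48 h in KO livers, at -0.89 ± 0.26, -0.57 ± 0.22 and -0.54 ± 0.17. Rsad2 had 2.25, 2.73 and 5.84 CPM in KO livers at 48 h and Ifi44 0.593, 0.793 and 2.87 CPM, with library 3 the highest in each. Without library 3 the changes in KO livers at 48 h were -1.74 for Ifit1, -1.73 for Irf7, -1.65 for Rsad2, -2.09 for Ifi44, -1.41 for Rtp4, -0.74 for Dhx58 and -0.60 for Ifih1, all 7 still called. In WT livers at 48 h Mx1, Cmpk2, Gbp7 and Isg15 were called at -2.46 ± 0.65, -1.63 ± 0.44, -1.20 ± 0.32 and -1.12 ± 0.35. Zbp1 was called higher at 48 h, at 1.48 ± 0.36 in KO livers (1.05 without library 3) and 1.25 ± 0.41 in WT livers. Ifi27l2b changed by 2.39 ± 0.32 in KO livers at 48 h, and by 2.48 without library 3.

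Over the 4 times between 24 and 48 h, 24 of the 43 genes were called lower at least once in both genotypes and 32 in at least 1 genotype. Of all genes tested, 18.7% were called lower at least once in both and 34% in at least 1. Members called higher at least once in both numbered 6, namely Isg15, Zbp1, Ifi27l2b, Dtx3l, Lgals3bp and Eif2ak2. Only Oas1g, Oas3, Ifi27l2a and Trim30a were called at none of these times in either genotype. Isg15, Irf9, Parp9, Dtx3l and Irgm1 were called higher at one time and lower at another. The shares of all genes called higher in both genotypes, called at none of these times or called in both directions were not counted. Whether members differ from other genes in these patterns cannot be told.

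KO livers were compared with WT livers at each condition, which asks whether the knockout carries more interferon-stimulated transcripts. Outside 96 h, edgeR called none of the 43 genes in any condition. The shares of all genes called were also small. In time order from baseline to 4 weeks, without 96 h, they were 0.0852%, 0.0426%, 0.937%, 0.142%, 0.135%, 0.135% and 0.22%. In the same order, at an unadjusted p under 0.05 the members numbered 0, 11, 7, 4, 8, 1 and 2. The share of all genes at that unadjusted threshold was not counted, so whether these numbers exceed it cannot be told. DESeq2 called none in 6 of these conditions and 1, Bst2, at 48 h. The direction varied with the condition. The fold change was positive for 31, 40, 10, 31, 40, 20 and 21 of the 43 genes, and the median log2 fold change was 0.12, 0.37, -0.31, 0.15, 0.37, -0.06 and -0.01. Over all genes the median was -0.002 at 24 h, 0.008 at 30 h and 0.016 at 48 h. Leaving out each library in turn left 39 to 41 members positive at 24 h and 7 to 14 at 30 h. The number ranged more widely at baseline, from 23 to 41, and at 4 weeks, from 16 to 31. It was 25 to 33 at 40 h and 18 to 29 at 7 days. At 48 h the balance rests on KO library 3, without which 26 were positive and the median was 0.08. The mean log2 CPM of the members at 48 h was 2.88, 2.90 and 3.63 in KO libraries, against 2.73 and 2.92 in WT libraries, so that library 3 alone lay above the WT range. The WT groups at 30 and 48 h hold 2 libraries each. Without KO library 3 at 30 h, Ifitm3 was called lower at that time.

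**Figure D4:**
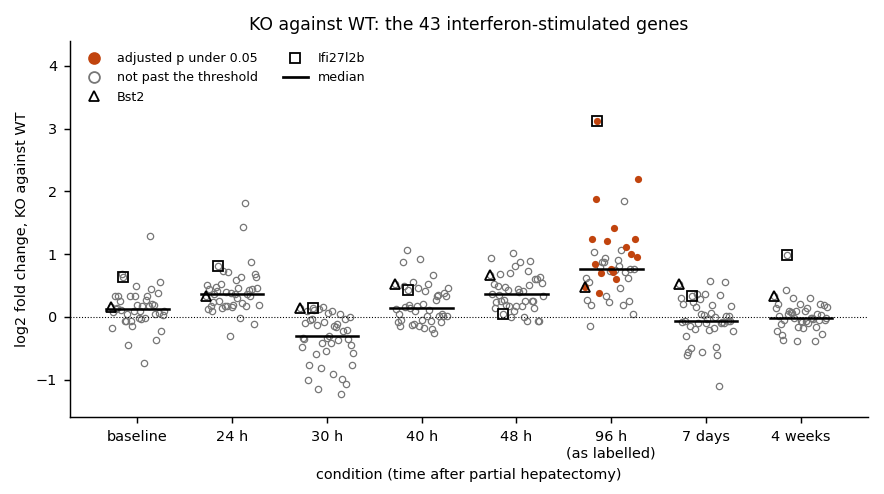
Log2 fold change, KO against WT, of each of the 43 genes in the 8 conditions (open circles, or filled where the adjusted p is under 0.05), with a line at the median, a triangle at Bst2 and a square at Ifi27l2b. No gene is filled outside 96 h, where 17 are, and the Bst2 triangle is above 0 in every condition.

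Averaged over the 7 conditions other than 96 h, Bst2 (chr8:71534255-71537456) and Ifi27l2b were higher in KO livers. This comparison was added after the data were seen. Of the 43 genes 2 were called higher, and 1.6% of all genes were called higher. Bst2 was higher in KO livers by 0.38 ± 0.06 log2 units (edgeR adjusted p = 2.95e-05), and its fold change was positive in all 7 conditions. Its libraries were 121, 124 and 146 CPM in KO livers at 40 h, against 74, 111 and 85.9 CPM in WT livers, and 153, 136 and 158 CPM in KO livers at 48 h, against 108 and 80 CPM in WT livers. At 7 days it had 203 and 237 CPM in KO livers, against 157, 133 and 170 CPM in WT livers, and at 4 weeks 185, 178 and 187 CPM in KO livers, against 159, 136 and 143 CPM in WT livers. KO and WT libraries were apart at these 4 conditions and at baseline. They overlapped at 30 h and at 24 h, when there were 114, 141 and 157 CPM in KO livers and 100, 107 and 118 CPM in WT livers. At baseline the Kupffer cell marker sums were also apart, at 242 to 344 CPM in KO and 146 to 220 CPM in WT livers. So were the endothelial sums (242 to 256 and 187 to 227) and the monocyte and neutrophil sums (35.6 to 45 and 17.9 to 31.1). B cell and plasmacytoid dendritic cell sums were 3.34 to 4.38 and 1.38 to 2.36. T and NK cell and hepatocyte sums overlapped. At 40 h only the T and NK cell sums were apart, higher in KO livers (2.18 to 2.87 and 1.7 to 2 CPM). At 48 h only the B cell and plasmacytoid dendritic cell sums were, also higher in KO livers (1.28 to 2.25 and 0.616 to 1.14 CPM). At 7 days monocyte and neutrophil sums (49 to 54.9 and 61.3 to 114 CPM) and T and NK cell sums (2.49 to 2.74 and 3.4 to 5.62 CPM) were lower in KO livers. At 4 weeks all of these sums overlapped. The part of these cells was not tested.

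Ifi27l2b was higher in KO livers by 0.48 ± 0.12 log2 units over the same conditions (edgeR adjusted p = 0.0219), also positive in all 7. That call depended on single libraries, with an adjusted p of 0.057 without WT library 2 at 30 h and 0.0624 without WT library 3 at 48 h, and of 0.121 with a replicate block. The members next nearest the threshold missed it, with Irf7 at 0.38 ± 0.12 (edgeR adjusted p = 0.114), Ifi35 at 0.15 ± 0.05 (edgeR adjusted p = 0.201) and Isg15 at 0.30 ± 0.12 (edgeR adjusted p = 0.259). Tests on FPKM values called 3 to 4 members, which were Bst2, Ifi27l2b and Ifi35, and Irf7 in 2 of the 3 versions.

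At 96 h, 17 of the 43 genes were called higher and none lower in the libraries labelled KO against those labelled WT, where 7.22% of all genes tested were called higher and 7.08% lower. The median log2 fold change of the 43 genes was 0.77, beside 0.008 over all genes. Ifi27l2b had 33, 46.6 and 37.2 CPM in libraries labelled KO, against 4.57, 3.42 and 5.46 CPM in libraries labelled WT, a difference of 3.12 ± 0.32 log2 units (edgeR adjusted p = 3.88e-07). Zbp1 had 23.7, 25.1 and 12.7 CPM in libraries labelled KO, against 4.08, 4.31 and 5.04 CPM in libraries labelled WT (2.19 ± 0.37, edgeR adjusted p = 0.000218). Neither gene's groups overlapped. Usp18 (25.7, 32.1 and 20 CPM in libraries labelled KO, against 10, 8.46 and 14.4 CPM in those labelled WT) and Gbp2 (10.1, 9.49 and 6.55 CPM, against 3.59, 3.42 and 3.9 CPM) were likewise apart, at 1.24 ± 0.26 and 1.25 ± 0.35 log2 units. Igtp and Irgm2 were called although their groups overlapped. Igtp had 109, 229 and 62.1 CPM in libraries labelled KO, against 48.8, 64.2 and 60.7 CPM in libraries labelled WT, a difference of 1.21 ± 0.41, and Irgm2 differed by 1.42 ± 0.38. Ifi27l2a, Oasl2, Irf9 and Bst2 differed by 1.88 ± 0.37, 1.11 ± 0.39, 0.77 ± 0.16 and 0.48 ± 0.14 log2 units. The 3 IFIT genes missed the threshold between the labels, with edgeR adjusted p-values of 0.0624 for Ifit1, 0.0825 for Ifit2 and 0.0519 for Ifit3, and all 3 had an unadjusted p under 0.05.

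The number of calls at 96 h depended on single libraries. It was 7 without library 2 labelled KO, 10 without library 1 labelled WT and 7 without library 2 labelled WT, and tests on FPKM values called 8 to 10. Against baseline, 25 members were called higher and 1 lower in the libraries labelled KO, where 21.9% and 22.1% of all genes were. Ifi27l2b (3.38 ± 0.32 log2 units), Ifi27l2a (2.78 ± 0.39), Zbp1 (2.27 ± 0.37), Usp18 (1.59 ± 0.27), Oas1g (1.43 ± 0.55), Ifit1 (1.42 ± 0.33), Mx1 (1.22 ± 0.48) and Isg15 (1.21 ± 0.29) led the rise. Gbp2, Ifit3, Bst2, Irf9 and Ifitm3 were also called higher, at 1.18 ± 0.34, 1.07 ± 0.33, 0.94 ± 0.14, 0.57 ± 0.16 and 0.46 ± 0.13, and Stat2 lower, at -0.36 ± 0.15. In the libraries labelled WT 3 were called higher and 1 lower, where 12.8% and 14.6% of all genes were. These were Ifi27l2a (1.58 ± 0.42), Trim30a (0.97 ± 0.33), Bst2 (0.62 ± 0.14) and Lgals3bp (-0.46 ± 0.15). FPKM values gave 10 to 14 calls in place of 26 in the libraries labelled KO, and leaving out KO library 1 at baseline or library 2 labelled KO at 96 h gave 17 and 15. In the libraries labelled WT the count was 2 without library 2 and 8 without library 3 of that group. The difference between these 2 changes was called for 3 members, Ifi27l2b, Zbp1 and Usp18, and for 2.91% of all genes. Over the whole time course, a joint test of the 7 differences between the genotypes' changes called Ifi27l2b alone among the members with edgeR (edgeR adjusted p = 0.0015), with 1.41% of all genes called. Leaving out 1 library gave 1 to 5, with 5 without KO library 3 at 48 h and 3 without library 3 labelled KO at 96 h. DESeq2 called 6, which were Ifi27l2b, Gbp2, Ifit1, Irf9, Usp18 and Zbp1. Without the 96 h libraries edgeR called none, and Ifi27l2b had an adjusted p of 0.961.

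Cell markers differed between the labels at 96 h. The summed level of 12 monocyte and neutrophil markers was 98.5 to 164 CPM in libraries labelled KO and 63 to 71.6 CPM in libraries labelled WT, and 5 of the 10 tested were called higher, led by Chil3, S100a9, S100a8 and Retnlg at 3.81 to 5.16 log2 units. The sum of 14 Kupffer cell markers was 502 to 905 CPM in libraries labelled KO and 317 to 433 CPM in libraries labelled WT, with Marco called. The sum of 8 B cell and plasmacytoid dendritic cell markers was 4.07 to 7.28 CPM in libraries labelled KO and 3.33 to 3.42 CPM in libraries labelled WT. The sum of 10 hepatocyte markers was 205777 to 344407 CPM in libraries labelled KO and 109902 to 178266 CPM in libraries labelled WT, with 1 of 10 called higher. Endothelial cell sums overlapped, at 166 to 273 and 195 to 273 CPM, as did T and NK cell sums, at 4.01 to 5.22 and 3.62 to 5.18 CPM. Library 1 labelled KO had the lowest TMM scaling factor of all libraries, 0.661. The part of these cells in the difference was not tested.

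Other genes of the pathway were counted at 40 h, when 17.7% of all genes were called lower and 17.9% higher in KO livers, and 17.3% and 19.2% in WT livers. Of 50 further interferon-stimulated genes tested, 23 were called lower and 2 higher at 40 h in KO livers, and 20 lower and 3 higher in WT livers, with medians of -0.60 and -0.52 log2 units. Ifit3b, Gbp10 and Gbp11 led in KO livers, at -2.61, -2.44 and -2.06 log2 units, and Gbp11, Gbp10 and Ddx60 in WT livers, at -3.02, -2.69 and -2.38. The chemokine gene Cxcl9 fell by 1.96 and 2.53 log2 units. Of 17 antigen presentation genes, 8 were called lower at 40 h in KO livers and 9 in WT livers, and none higher. The class II genes led them. Cd74, the invariant chain that guides class II molecules, fell by 2.26 log2 units in KO livers and by 2.33 log2 units in WT livers, and H2-Aa, H2-Ab1 and H2-Eb1 changed by -2.33 to -1.75 log2 units.

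Upstream genes did not move as one. Among 9 kinase and factor genes, Irf2, which competes with IRF1 for DNA, and Irf5 were called lower at 40 h, at -0.98 and -1.25 log2 units in KO livers and -0.88 and -1.68 in WT livers. Stat3, which carries interleukin 6 signals, was called higher, at 1.07 and 0.97 log2 units. Of 13 sensing genes, Mb21d1, which encodes the DNA sensor cGAS, was called higher at 40 h, at 2.24 log2 units in KO livers and 2.40 in WT livers, and Mavs, the adapter of the RIG-I family, lower, at -0.73 and -0.62. Of 12 negative regulators, Socs3, which damps STAT3 signalling, was called higher at 24 h, at 2.50 log2 units in KO livers and 1.71 in WT livers. Rnaseh2b, a subunit of RNase H2, rose by 1.92 and 1.88 log2 units at 40 h, and Adar, the editor of double-stranded RNA, fell by 0.66 and 0.72.

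Cell markers at 40 h are given beside the fall. The sum of 10 hepatocyte markers was 90449 to 113843 CPM in KO livers at 40 h, against 97816 to 105919 CPM at baseline, and 107859 to 116337 CPM in WT livers, against 103949 to 119647 CPM at baseline. For 14 Kupffer cell markers it was 210 to 374 CPM in KO livers at 40 h, against 242 to 344 CPM at baseline, and 76.8 to 218 CPM in WT livers, against 146 to 220 CPM. These ranges overlapped, and 1 Kupffer cell marker of 14, Marco, was called, higher in both genotypes. The sum of 8 B cell and plasmacytoid dendritic cell markers was 0.624 to 1.87 CPM in KO livers at 40 h, against 3.34 to 4.38 CPM at baseline, and 1.00 to 1.32 CPM in WT livers, against 1.38 to 2.36 CPM, with no overlap in either. For 14 T and NK cell markers it was 2.18 to 2.87 CPM in KO livers at 40 h, against 2.84 to 4.48 CPM at baseline, and 1.7 to 2 CPM in WT livers, against 2.26 to 3.82 CPM, with Prf1 at 0 in all 3 KO libraries at 40 h and Cd8b1 in all 3 WT libraries. The sum of 12 monocyte and neutrophil markers was 20.8 to 43.7 CPM in KO livers at 40 h, against 35.6 to 45 CPM at baseline, and 16.1 to 26.7 CPM in WT livers, against 17.9 to 31.1 CPM. The part of the rarer cells in the fall was not tested.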

How the data were processed

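The members and gene lists used here were chosen with earlier results of these data known. Sample titles gave each library its genotype, time and number. Column names tie the baseline libraries to the 40 h set. Same-numbered baseline and 40 h libraries of a genotype were not paired in the main fit. Their deviations from group means had correlations of -0.06 to 0.16, with 2 of 6 over 0.1. That is too weak to decide whether the numbers pair them. Whether other times had a batch of their own is not given in the sources used here, so batch and time cannot be told apart. Whether libraries of 1 group are separate animals is not stated in the labels. The p-values therefore reflect library-to-library spread alone, and that may be technical.

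The authors deposited whole-number counts per gene (19966 Ensembl IDs, not normalized) and a second table of FPKM values (46472 entries). Per the submitters' processing notes, the build was mm10 and the tools named are Trimmomatic, HTSeq, DESeq2, Cufflinks 2.2.1, TopHat2 2.1.0 and FastQC 0.11.5. How strand was counted, and with which annotation, is not given in the sources used here, so overlapping genes and near-copies cannot be told apart.

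Counts were filtered with filterByExpr in edgeR 4.0.16 (R 4.3.3), which kept 14090 genes and at least 99.944% of the counts of each library. They were scaled with TMM factors and tested with edgeR's quasi-likelihood test, with 1 mean for each of the 16 groups (29 residual degrees of freedom, common dispersion 0.0322) and Benjamini-Hochberg adjustment over all genes tested. Levels are CPM with TMM scaling, mean ± SD. Comparisons of times share the baseline libraries of their genotype. The fit was tested on simulated data. Named in the text are 13 members always, and the called members with the 8 largest changes in each direction per comparison. Alternatives were DESeq2 1.42.0, RLE scaling, no filter, limma 3.58.1 on log2(FPKM + 0.1) or (FPKM + 1), a replicate block, and each library left out. Same-numbered KO and WT libraries were not paired in the main fit. Their correlations were -0.31 to 0.31, with 8 of 21 over 0.1, which does not decide whether the numbers mark pairs. Gene positions come from GENCODE on GRCm38 (mm10).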

Additional observations from a re-analysis of the deposited data

Results flagged for a closer look

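A test of the difference between the genotypes' changes from baseline passed the threshold for 3 members, all at 96 h. There the libraries labelled WT carry Bglap3 and Rhox5 at the levels of KO libraries. Ifi27l2b differed by 2.48 log2 units (edgeR adjusted p = 0.00504), Zbp1 by 2.09 log2 units (edgeR adjusted p = 0.03) and Usp18 by 1.47 log2 units (edgeR adjusted p = 0.029). Ifi27l2b changed by 3.38 log2 units from baseline in libraries labelled KO and by 0.90 in libraries labelled WT, Zbp1 by 2.27 and 0.17, and Usp18 by 1.59 and 0.11. By edgeR all 3 were called in the libraries labelled KO and none in those labelled WT, where Ifi27l2b was called by DESeq2, by limma on log2(FPKM + 0.1) with and without the filter, and by edgeR without WT library 1 at baseline. Ifi27l2b was also the member that edgeR called for its whole time course (edgeR adjusted p = 0.0015), where DESeq2 called 6 members, with an adjusted p of 0.961 when the 96 h libraries were left out.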

How the results depend on the processing

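Counts of called members are given here. With DESeq2 the count was 1 for KO against WT at 48 h in place of 0, 2 for KO at 4 weeks in place of 1, 2 for WT at 7 days in place of 1, and 6 for the time courses in place of 1. With limma on log2(FPKM + 0.1), on log2(FPKM + 1) and on log2(FPKM + 0.1) with no filter, in that order, the count was 10, 10 and 8 at 96 h as labelled (17 with edgeR), and 13, 14 and 10 for libraries labelled KO at 96 h against baseline (26). It was 15, 15 and 14 for WT at 40 h (27), 10, 8 and 6 for WT at 48 h (16), 1, 1 and 1 for KO at 7 days (2), and 0, 0 and 0 for KO at 4 weeks (1). Some of these scales moved other counts: 1 for KO against WT at 48 h on log2(FPKM + 1) and with no filter, 3 for WT at 30 h with no filter (5), 2 for WT at 7 days on log2(FPKM + 0.1), and 4 on both filtered scales for the mean over 7 conditions (2). Without the 96 h libraries the time courses gave 0. The cause was not tested.

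Leaving out each library in turn gave 0 to 1 for KO against WT at 30 h and 7 to 24 at 96 h as labelled. Against baseline it gave 6 to 19 in KO livers at 48 h, 15 to 27 in libraries labelled KO at 96 h, 1 to 3 in KO at 7 days and 0 to 2 in KO at 4 weeks. In WT it gave 6 to 9 at 24 h, 2 to 9 at 30 h, 7 to 19 at 48 h, 2 to 8 in libraries labelled WT at 96 h and 1 to 3 at 7 days. It gave 1 to 3 for the mean over 7 conditions and 1 to 5 for the time courses. A group left with 1 library is assumed to vary like the others.

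With a replicate block the mean over 7 conditions gave 1, Bst2, in place of 2, and no other count moved by more than 1.5 times. A block of same-numbered baseline and 40 h libraries, added after the data were seen, gave 26 in KO livers at 40 h (25 without it) and 27 in WT livers (27). In WT livers each 40 h library correlated best with the baseline library of its own number. In KO livers only 40 h library 3 did so. Correlations this weak cannot decide whether the numbers pair the libraries. For named genes, 1878 alternative values held 1611 that kept direction and side of the threshold, 267 that lost the call and 0 that reversed. Low counts limit Oas3, Oas1g and Mx1.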
